A study of Sus scrofa with 4 samples.

Results

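The genes examined here were ATP2A2, PLN, RYR2, CASQ2, SLC8A1, HRC, CAMK2G, ADRB1 and ADRA1B, which move calcium through the heart muscle cell or receive adrenergic signals at its surface. Every probe set (a group of short probes read together as 1 value) whose platform annotation gave one of these symbols alone was taken. The annotation held 17 such probe sets for 8 of the 9 genes, out of 24123 probe sets and 6765 gene symbols on the array. ADRA1B, which the study had also picked from these arrays, had no probe set under that symbol in the annotation used here and was not analysed.

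The samples were heart tissue from 4-month-old female Chinese Bama minipigs in which a myocardial infarction had been made by tying the left circumflex artery. In the myoblast group, human skeletal myoblasts (muscle precursor cells) suspended in DMEM had been injected into the heart wall, at the infarct border by the study's methods and at the infarct and border zones by the labels. These pigs received cyclosporin A against rejection. The control group had the same infarction and no myoblasts. The labels call it untreated, while the study's text names the control treatment group for its arrays, which its methods define as DMEM injection with cyclosporin A. RNA from the infarct zone and the border zone of each group was read on the Affymetrix Porcine Genome Array, which gave 4 arrays: myoblast infarct, control infarct, myoblast border and control border. Each condition was 1 array. The number of animals behind an array is not given in the sources used here, so no error between animals could be attached to any value and no difference below has a replicate check. The probes were designed on pig transcripts and the injected cells were human, and the part of human RNA in any signal was not tested.

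At each heart beat, calcium that enters through surface channels opens the ryanodine receptor of the sarcoplasmic reticulum, the internal calcium store, and the released calcium starts contraction. Relaxation follows as the SERCA pump returns calcium to the store and the sodium-calcium exchanger carries the rest out of the cell. Adrenergic receptors set the force and speed of this cycle, largely through kinases that act on the pump's inhibitor phospholamban and on the release channel.

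Values are MAS5 signals, in arbitrary units, scaled so that the trimmed mean of each array was close to 500.1. The array medians lay between 137 and 142. Of the 17 probe sets, 10 were above the median of every array, covering 6 genes, and 6 were below it on every array. Signals of different probe sets depend on their probes, so ratios of signals were taken between arrays and not between probe sets. Where probe sets are ranked by brightness or summed over markers, the result is no measure of RNA amount. Dim probe sets scattered most: 53.5% of those with a mean signal below 32 differed at least 2-fold between myoblast and control infarct zones, against 3.41% of those at 2048 or more. All 13 measured cardiomyocyte markers were lower with myoblasts in both zones, and a 28S ribosomal control probe set read 10230 and 8477 in the myoblast infarct and border zones, against 15983 and 15770 in the control infarct and border zones. The highest signal of an array was 37665 and 39249 in the myoblast infarct and border zones, against 50774 and 48807 in the control infarct and border zones. The 3′ signal of the ef1a control transcript over its 5′ signal was 2.49 and 3.01 in the myoblast infarct and border zones, against 4.13 and 4.17 in the control infarct and border zones, while that of gapdh lay between 1.38 and 1.73 and that of actin between 19.5 and 36.8 on the 4 arrays. The part of these differences in the values of the calcium genes was not tested. In whole tissue, fewer cells of a type and less RNA per cell cannot be told apart.

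The SERCA pump and its inhibitor stood among the brightest probe sets on every array. ATP2A2, which encodes the SERCA pump, had 4 probe sets, and the brightest of them (Ssc.22641.2.S1_a_at) was brighter than 99.7% of the array. In the infarct zone it read 25234 with myoblasts and 22457 in the control, a ratio of 1.12. In the border zone it read 22222 with myoblasts and 22250 in the control, a ratio of 0.999. By this probe set the 4 arrays thus lay close together before quantile normalization, with the myoblast infarct zone highest. Quantile normalization moved its log2 ratio from 0.17 to 0.45 in the infarct zone and from -0.0018 to 0.098 in the border zone. The other ATP2A2 probe sets did not share 1 direction. Ssc.29181.1.A1_s_at was 1.32 times the control in the infarct and 1.10 times in the border zone, and Ssc.22641.1.S1_at was 0.806 and 0.854 times the control in the infarct and border zones. The dimmest, Ssc.22641.3.S1_at, read 59.3 and 66.1 in the myoblast and control infarct zones, and 26.5 in the myoblast border zone, against 68.8 in the control border zone. Only the myoblast border reading stood apart, at 0.386 times the control, in a signal class where a 2-fold difference was found for 19.3% of all probe sets.

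PLN encodes phospholamban, which holds the SERCA pump back until a kinase phosphorylates it. Its 2 probe sets were both lower with myoblasts in both zones, although quantile normalization brought their infarct log2 ratios of -0.16 and -0.10 to 0 and 0.015. Ssc.5227.1.S1_at read 15890 in the myoblast infarct zone, against 17707 in the control infarct zone, and 14720 in the myoblast border zone, against 16883 in the control border zone. Ssc.5227.1.S2_at read 7717 and 8274 in the myoblast and control infarct zones, and 6306 and 8399 in the myoblast and control border zones. Both probe sets had the myoblast border zone as the lowest of the 4 arrays, at 0.872 and 0.751 times the control. Set against the ATP2A2 probe set of highest signal on the same arrays, the change in PLN (Ssc.5227.1.S1_at) was 0.799-fold in the infarct zone and 0.873-fold in the border zone. These folds are those before quantile normalization, which moved the ATP2A2 probe set in both zones. Their direction depended on the ATP2A2 probe set. Ssc.22641.1.S1_at, at 0.806 and 0.854 times the control in the infarct and border zones, lay below this PLN probe set, at 0.897 and 0.872 times. Ssc.29181.1.A1_s_at, at 1.32 and 1.10 times, lay above it, as the brightest ATP2A2 probe set did.

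RYR2 encodes the ryanodine receptor that releases calcium from the store. Its bright probe set, Ssc.16180.1.S1_at, read 2837 in the myoblast infarct zone and 2510 in the control infarct zone, a ratio of 1.13. Its border zone signals were 2051 with myoblasts and 2558 in the control, a ratio of 0.802. The direction therefore differed between the zones, and both control arrays lay between the readings of the 2 myoblast arrays. Ssc.16180.2.S1_at had the same opposite signs in a narrower band, at 1.05 times the control in the infarct and 0.923 times in the border zone. Ssc.16180.2.A1_at was very dim, at 5.20 and 14.1 in the myoblast and control infarct zones and 4.41 and 6.39 in the myoblast and control border zones, and only 5.62% of probe sets were dimmer on the mean of the 4 arrays. Its ratios of 0.368 in the infarct and 0.690 in the border zone belong to the class of signals below 32.

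CASQ2 and HRC encode proteins that hold calcium inside the store, calsequestrin and the histidine-rich calcium binding protein. CASQ2 (Ssc.16147.1.A1_at) read 720 in the myoblast infarct zone, against 1129 in the control infarct zone. In the border zone it read 562 with myoblasts and 1027 in the control. Both myoblast arrays lay below both control arrays, at 0.638 and 0.548 times the control of the same zone. The other CASQ2 probe set, Ssc.16147.1.S1_at, was dim and ran the other way, at 67.5 and 60.2 in the myoblast and control infarct zones and 50.3 and 39.4 in the myoblast and control border zones. HRC (Ssc.25389.1.S1_at) read 532 in the myoblast infarct zone, against 722 in the control infarct zone, and 351 in the myoblast border zone, against 541 in the control border zone. It was lower with myoblasts in each zone, at 0.737 and 0.648 times the control, and the myoblast infarct zone lay close to the control border zone.

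SLC8A1 encodes the sodium-calcium exchanger of the surface membrane. Its only probe set (Ssc.16087.1.S1_at) read 94.0 in the myoblast infarct zone, against 119 in the control infarct zone. Its border zone signals were 56.6 with myoblasts and 151 in the control, which was the single array where it exceeded the array median. Both myoblast readings were below both control readings, with a ratio of 0.793 in the infarct and 0.375 in the border zone.

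CAMK2G encodes the gamma subunit of the calcium- and calmodulin-dependent kinase CaMKII. The study picked this gene from these same arrays, so its direction here is not independent evidence. The probe sets differed: Ssc.2491.1.S1_at read 801 and 807 in the myoblast and control infarct zones and 807 and 946 in the myoblast and control border zones. Ssc.5879.4.S1_a_at read 203 in the myoblast infarct zone, against 532 in the control infarct zone, and 377 in the myoblast border zone, against 486 in the control border zone. The low reading of the second probe set was on the myoblast infarct array alone, at 0.382 times the control, where the first probe set was at 0.992 times. The myoblast infarct array was also the one with the lowest summed signal of the 7 measured fibroblast markers, at 47009, against 64016 on the control infarct array, with 79297 and 63487 on the myoblast and control border arrays. The markers did not all go 1 way between the infarct arrays. COL1A2 and FAP read 430 and 2979 with myoblasts, against 268 and 2482 in the control, while COL3A1, DCN, LUM, POSTN and THY1 were lower. The part of the fibroblast markers in the CAMK2G reading was not tested.

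ADRB1 encodes the main beta-adrenergic receptor of heart muscle, through which noradrenaline speeds and strengthens the beat. Both of its probe sets were below the median of every array. Ssc.16075.1.S1_at read 48.2 and 49.4 in the myoblast and control infarct zones, and 28.8 in the myoblast border zone, against 46.6 in the control border zone. The first 2 and the last lay together above the myoblast border reading. Ssc.16075.1.A1_at read 9.06 and 15.5 in the myoblast and control infarct zones and 21.4 and 12.8 in the myoblast and control border zones, so that the 2 probe sets had opposite directions in the border zone.

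**Figure D1:**
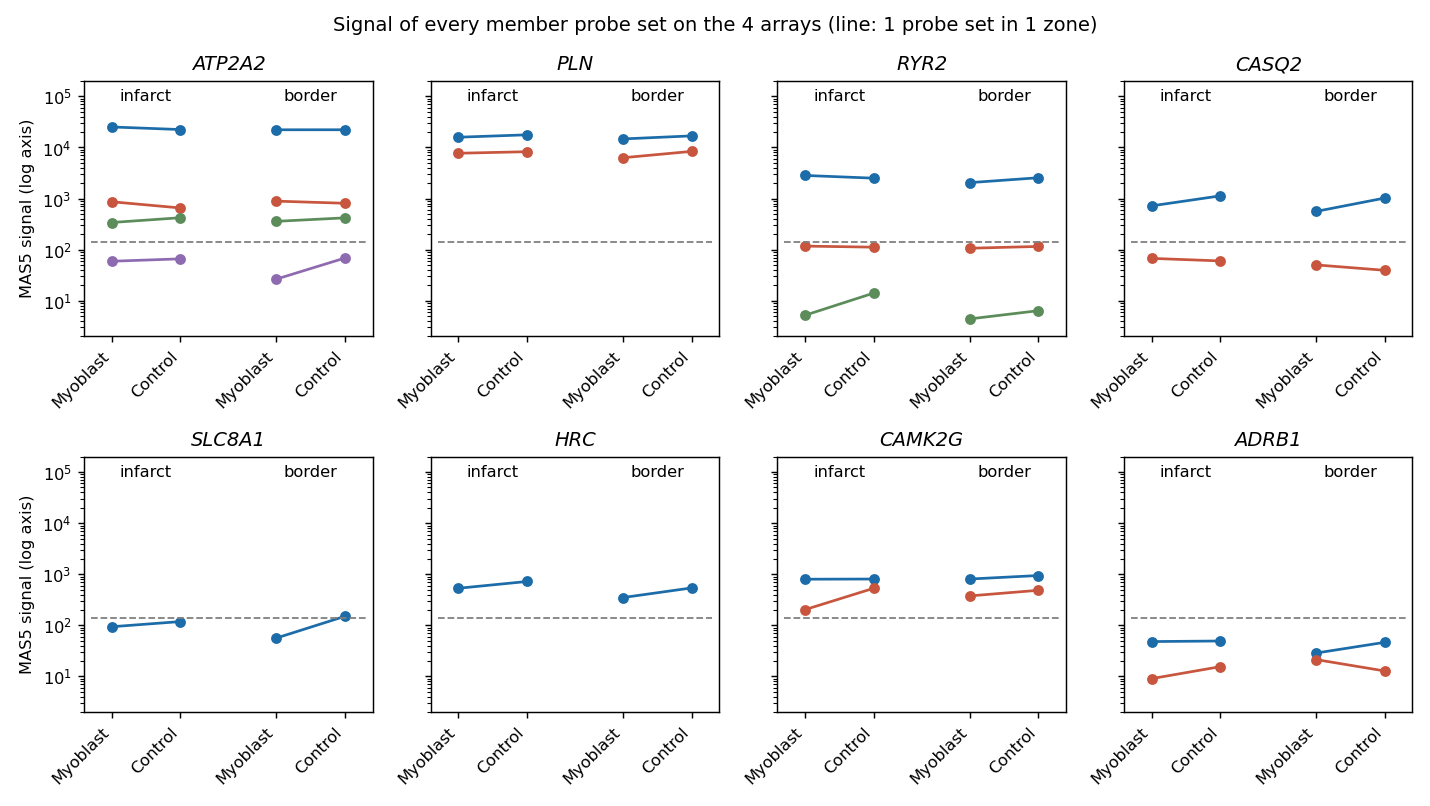
MAS5 signal (log axis) of each of the 17 probe sets in the 8 measured genes, infarct zone on the left and border zone on the right of each panel, with myoblast left of control in each zone; each line joins 1 probe set in 1 zone, 1 color stands for 1 probe set, and the dashed line marks the array median. ATP2A2 and PLN hold the highest signals, while both ADRB1 probe sets lie below the median on every array.

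Few of the probe sets reached the 2-fold threshold of the study's methods. In the infarct zone 2 of 17 were at least 2-fold lower with myoblasts (the dimmest RYR2 probe set and CAMK2G Ssc.5879.4.S1_a_at) and none was 2-fold higher, beside 9.58% of all probe sets lower and 10.5% higher. In the border zone 2 of 17 were 2-fold lower (SLC8A1 and the dimmest ATP2A2 probe set) and none higher, beside 10.4% lower and 9.95% higher over the array. The shares of lower probe sets are near those of the whole array. On the mean of both zones none of the 17 reached 2-fold, beside 7.82% lower and 7.7% higher over the array. Of the 10 probe sets above every array median, only the CAMK2G one reached 2-fold, in the infarct zone, where 2.55% of all probe sets above the array median were 2-fold lower.

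Smaller differences lay mostly on the lower side. Over both zones, 11 of the 17 probe sets (64.7%) were lower with myoblasts in both, 2 were higher in both and 4 had opposite signs, while 29.7% of all probe sets were lower in both and 30.7% higher in both. With 1 probe set per gene, that of highest mean signal, 6 of 8 genes were lower in both zones and none was higher in both, beside 31.3% lower and 33.2% higher of all annotated genes read the same way. The median log2 ratio of these 8 was -0.10 in the infarct zone (0.02 with signals below each array's median set to that median) and -0.47 in the border zone (-0.21 with that floor), beside -0.00 and 0.02 over all annotated genes taken the same way. In the infarct zone 1 of the 8 (CASQ2) was at least 1.5-fold lower, against 11.8% of all annotated genes. In the border zone 4 of 8 were (CASQ2, HRC, SLC8A1 and ADRB1), against 12.3%. With a floor at the array median 2 of these 4 remained past 1.5-fold, CASQ2 and HRC, since SLC8A1 came to -0.11 and ADRB1 to 0.0068 on the log2 scale. The infarct ratio was above the border ratio in all 8 genes, beside 49.9% of all annotated genes. Over the 17 probe sets it was above in 12, beside 51.5% of the array, and CAMK2G Ssc.5879.4.S1_a_at was among the others.

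**Figure D2:**
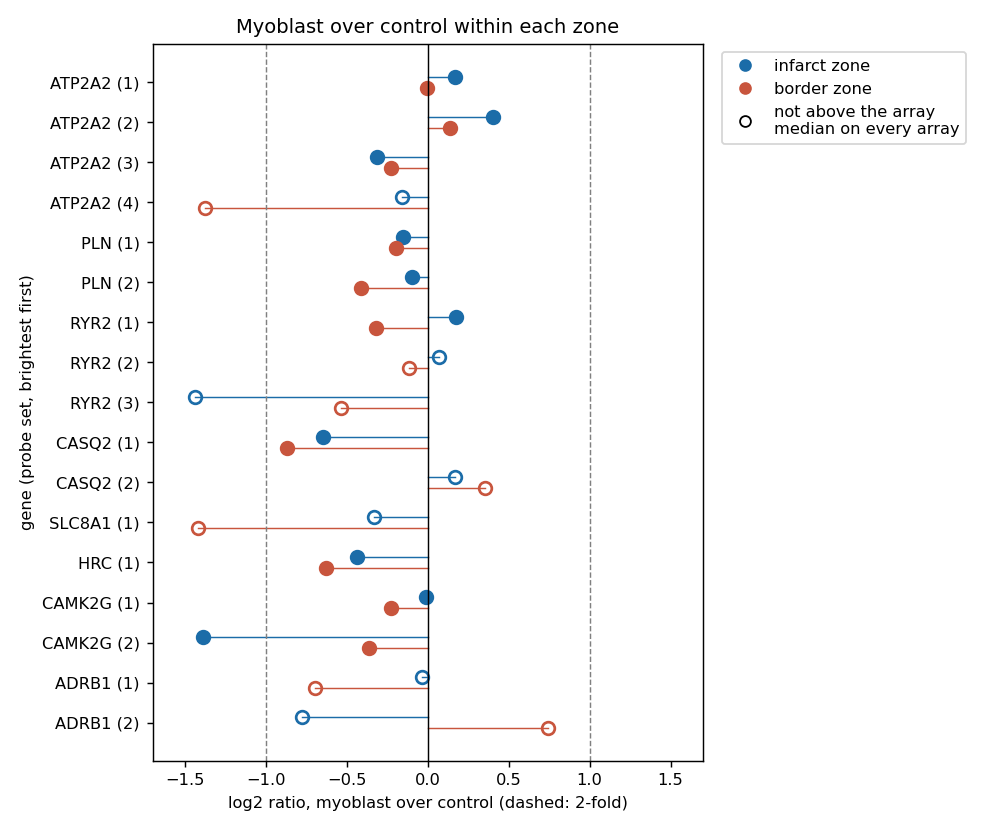
Log2 ratio of myoblast over control for the 17 probe sets, by zone; open circles are probe sets not above the median of every array, dashed lines mark 2-fold, and probe sets of a gene are numbered from the brightest. CASQ2 and HRC have their bright probe sets left of 0 in both zones, as does PLN before quantile normalization (infarct ratios of 0 and 0.015 after it), while the ATP2A2 and RYR2 probe sets fall on both sides.

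A fit with limma over all 24123 probe sets, with treatment and zone as terms and each zone counted as 1 repeat of the treatment contrast, had 1 residual degree of freedom and treats the zones as if they were replicates. CASQ2 had a log2 difference of -0.76 with a standard error of 0.20 and a Benjamini-Hochberg adjusted p of 0.567 in limma, the lowest among the 17. HRC had -0.53 with a standard error of 0.20 (limma adjusted p = 0.584), and the bright ATP2A2 probe set 0.08 with a standard error of 0.20 (limma adjusted p = 0.888). No probe set of the array passed an adjusted p of 0.05 in limma, and 2125 of 24123 (8.81%) had an unadjusted p under 0.05, among them CASQ2 as the only 1 of the 17. CAMK2G Ssc.5879.4.S1_a_at and SLC8A1, each at -0.88, had standard errors of 0.38 and 0.40. In limma, the error of each probe set is drawn toward a value shared over the array. These errors therefore measure only in part how far the 2 zones differed, and they carry no spread between animals.

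The infarct zone was then compared with the border zone within each treatment, to see how the calcium genes were distributed across the injured wall. In myoblast hearts 7 of 8 genes were higher in the infarct than in the border zone by their brightest probe set, with a median log2 ratio of 0.41 (0.15 with a floor at the array median), where 54.5% of all annotated genes were higher. Over the 17 probe sets 12 were, and 6 of the 10 above every array median, where 52.8% of the array was. In control hearts 5 of 8 genes were, with a median of 0.04 (-0.06 after quantile normalization), where 54.7% of all annotated genes were. The 13 measured cardiomyocyte markers also had medians above 0 for infarct over border, at 0.206 in myoblast hearts and 0.210 in control hearts. At 2-fold, the myoblast hearts had 1 of 17 probe sets higher (the dimmest ATP2A2 one) and 1 lower (ADRB1 Ssc.16075.1.A1_at), beside 9.77% and 8.18% of the array, and the control hearts 1 higher (the dimmest RYR2 one) and none lower, beside 8.95% and 8.25%.

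HRC was higher in the infarct zone with both treatments, by 1.52-fold in myoblast hearts and 1.34-fold in control hearts. CASQ2 (Ssc.16147.1.A1_at) was likewise 1.28 and 1.10 times its border level in myoblast and control hearts. SLC8A1 was 1.66 times its border level in myoblast hearts and 0.786 times in control hearts. RYR2 was 1.38 times its border level in myoblast hearts, against 0.981 times in control hearts, by its brightest probe set. The brightest ATP2A2 probe set was 1.14 times, against 1.01 times. In myoblast hearts ATP2A2 Ssc.29181.1.A1_s_at and Ssc.22641.1.S1_at were at 0.973 and 0.949 times their border level, and the dimmest at 2.23 times. In control hearts PLN was at 1.05 and 0.985 times its border level by its 2 probe sets. The brightest ATP2A2 probe set and both of PLN thus read nearly alike in the 2 zones there. ATP2A2 Ssc.29181.1.A1_s_at differed, at 0.810 times its border level in control hearts. Quantile normalization brought the control log2 ratios of the brightest ATP2A2 and PLN probe sets below 0, to -0.10 and -0.079. Since the zone ratio of the myoblast hearts and the treatment ratio of the border zone both use the myoblast border array, a low reading on that array enters both.

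**Figure D3:**
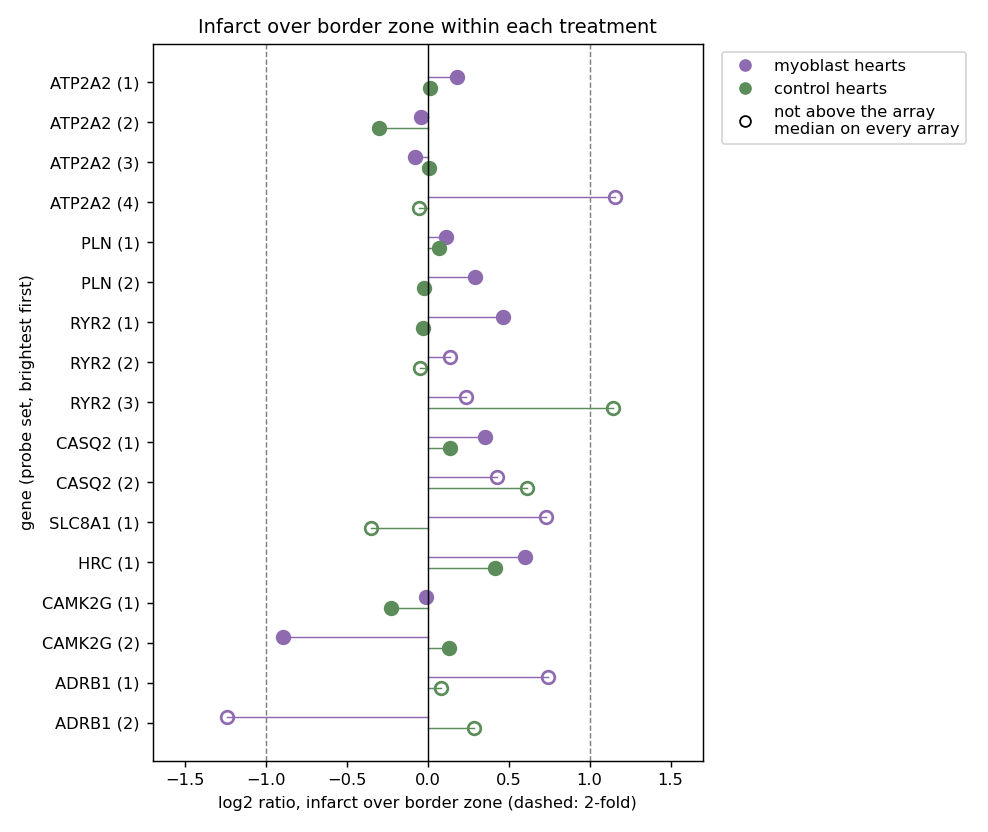
Log2 ratio of infarct over border zone for the 17 probe sets, in myoblast hearts and in control hearts; open circles are probe sets not above the median of every array and dashed lines mark 2-fold. HRC and the bright CASQ2 probe set lie right of 0 with both treatments, and CAMK2G (2) lies at -0.89 in myoblast hearts and 0.13 in control hearts.

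Wider lists of the same pathways were read by the brightest probe set of each gene. Of 45 other genes of excitation-contraction coupling, 31 were measured and 24 were above the median of every array. Among the 31, none was 2-fold higher in either zone, 3 were 2-fold lower in the infarct zone (PPP1R1A, SLN and the dim CACNB2) and 2 in the border zone (PPP1R1A and the dim ITPR1), beside 5.69% and 5.71% of all annotated genes lower. In both zones 15 of the 31 were lower and 6 higher, beside 31.3% and 33.2% of all annotated genes, and the list's median log2 ratio was -0.16 in the infarct and -0.18 in the border zone.

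PPP1R1A, which encodes protein phosphatase inhibitor-1, a brake on the phosphatase that removes phosphate from phospholamban, read 152 in the myoblast infarct zone, against 375 in the control infarct zone. Its border zone signals were 141 with myoblasts and 365 in the control. The myoblast arrays lay near one another and far below both control arrays, at 0.406 and 0.385 times the control (limma log2 difference -1.34, standard error 0.19, adjusted p = 0.566). CAMK2B, the beta subunit of CaMKII, read 287 and 497 in the myoblast and control infarct zones and 256 and 409 in the myoblast and control border zones, at 0.577 and 0.626 times the control. CALR, encoding calreticulin, a calcium-binding chaperone of the endoplasmic reticulum, was higher with myoblasts in both zones, at 1.36 and 1.44 times the control. TMEM38B, a cation channel of the internal store, was 1.67 times the control in the infarct and 1.03 times in the border zone.

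SLN encodes sarcolipin, a small inhibitor of the SERCA pump found in atrial and skeletal muscle. It read 161 in the myoblast infarct zone, against 997 in the control infarct zone, and 1833 in the myoblast border zone, against 931 in the control border zone. The control arrays lay together and the myoblast arrays lay on either side of them, at 0.161 times the control in the infarct and 1.97 times in the border zone. Among the genes drawn in the plot of both ratios it was farthest from the diagonal.

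Of 55 gene symbols listed for adrenergic signalling beside ADRB1 and ADRA1B, 24 were measured and 16 were above the median of every array. The list holds both GRK2 and ADRBK1, names of 1 gene, and both BVES and POPDC1, names of another. Within the infarct zone 1 was 2-fold higher with myoblasts (RGS2) and 1 lower (the dim PRKCD), beside 6.44% higher and 5.69% lower of all annotated genes. Within the border zone 2 were 2-fold higher (RGS2 and the dim ADRA2A) and none lower, beside 6.37% and 5.71%. RGS2, a regulator that shortens signalling through Gq, the G protein of the alpha1-adrenergic receptors, read 5000 in the myoblast infarct zone, against 1900 in the control infarct zone. Its border zone signals were 4369 with myoblasts and 2091 in the control. Both myoblast arrays were above both control arrays, by 2.63-fold and 2.09-fold within the zones (limma log2 difference 1.23, standard error 0.22, adjusted p = 0.566), and the dimmer RGS2 probe sets were higher in both zones too, by 1.18-fold to 2.25-fold.

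Downstream of the beta receptors, PRKACB, a catalytic subunit of protein kinase A, read 3385 and 3892 in the myoblast and control infarct zones and 2806 and 4439 in the myoblast and control border zones, at 0.870 and 0.632 times the control. PRKAR2A, a regulatory subunit, was 0.595 times the control in the infarct and 0.947 times in the border zone. ARRB2, an arrestin that ends receptor signalling, was 1.36 and 1.35 times the control in the infarct and border zones. RGS5, another regulator of G protein signalling that also marks pericytes, was 0.768 and 0.714 times the control. Over the 24 genes, 11 were lower in both zones and 5 higher in both, beside 31.3% and 33.2% of all annotated genes, with median log2 ratios of -0.08 in the infarct and -0.17 in the border zone.

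**Figure D4:**
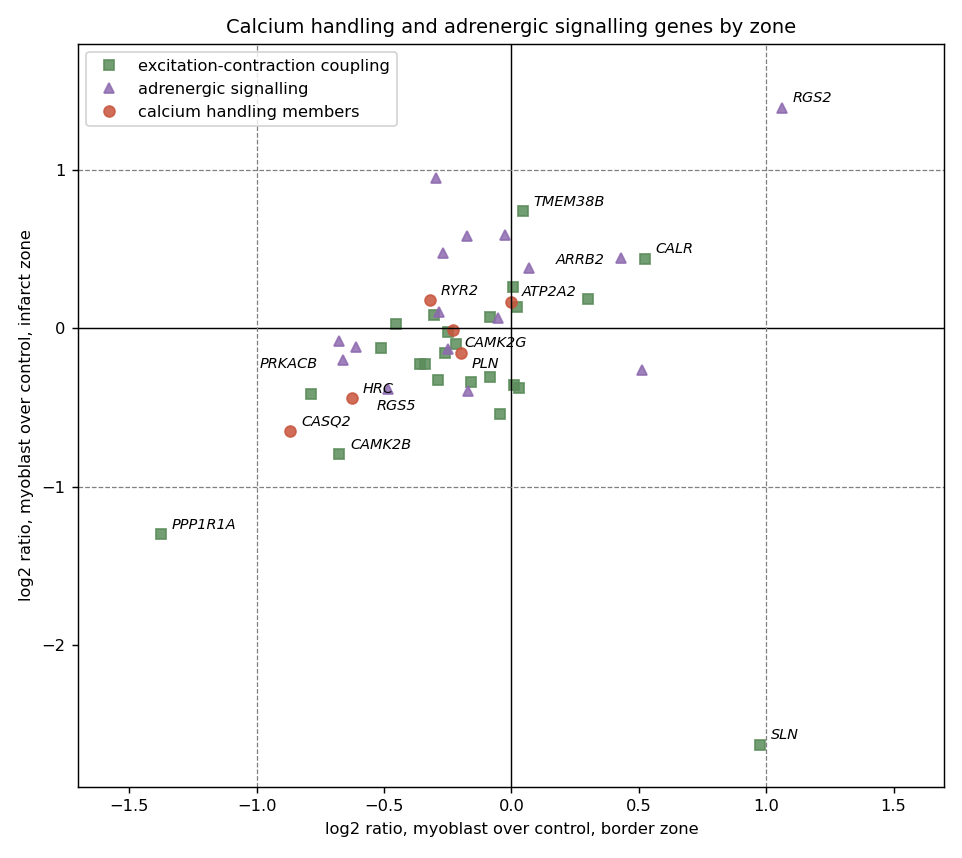
Log2 ratio of myoblast over control in the infarct zone (vertical) against the border zone (horizontal) for genes above the array median, by their brightest probe set; dashed lines mark 2-fold. PPP1R1A is more than 2-fold lower and RGS2 more than 2-fold higher in both zones, and SLN lies apart at -2.63 in the infarct and 0.98 in the border zone.

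Among membrane transporters outside calcium handling, 4 of 10 listed genes were measured. ATP1B1, the beta subunit of the sodium pump, was 0.841 and 0.713 times the control in the infarct and border zones. The brightest of 4 probe sets of the potassium channel gene KCNQ1 was 0.954 and 0.492 times the control. Its myoblast border signal was 102, below that array's median of 139.5. The other KCNQ1 probe sets were below the median of every array and did not share a direction. Their infarct and border ratios were 0.293 and 1.16, 0.899 and 0.785, and 1.83 and 0.292. Of 23 calcium and contraction genes of skeletal muscle, the tissue the injected cells came from, 12 were measured and 11 of them were below the median of every array. The exception was DES, which encodes desmin and is also made by heart muscle, at 0.709 and 0.835 times the control. In each zone 2 of the 12 were 2-fold higher and 4 were 2-fold lower with myoblasts, beside 6.44% higher and 5.69% lower of all annotated genes in the infarct and 6.37% and 5.71% in the border zone. All of these calls were among the 11 dim genes. The 7 measured skeletal muscle markers summed to 153 and 119 in the myoblast infarct and border zones, against 127 and 153 in the control infarct and border zones.

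The calcium genes were set beside markers of the cell types of the wall. The median log2 ratio of the 13 cardiomyocyte markers was -0.35 in the infarct and -0.26 in the border zone, and none reached 2-fold. Their summed signal was 291304 and 265654 in the myoblast infarct and border zones, against 366720 and 320872 in the control infarct and border zones. Relative to that median and by the brightest probe set of each gene, the log2 ratio of CASQ2 lay at -0.30 in the infarct and -0.61 in the border zone, and that of HRC at -0.09 and -0.37. ATP2A2 lay above it by 0.52 and 0.26, PLN by 0.19 and 0.06, and RYR2 at 0.53 and -0.06. These offsets are those before quantile normalization, after which the cardiomyocyte markers were not read. It moved the infarct log2 ratio of ATP2A2 from 0.17 to 0.45 and that of PLN from -0.16 to 0. Those of CASQ2, HRC and RYR2 came to -0.67, -0.48 and 0.20, from -0.65, -0.44 and 0.18. Other probe sets of the same genes differed: ATP2A2 Ssc.22641.1.S1_at, at -0.31 and -0.23, was close to the marker medians, and the dim CASQ2 probe set, at 0.17 and 0.35, was above them. The 7 endothelial markers had medians of 0.24 and 0.28, and the 7 fibroblast markers -0.39 in the infarct and 0.23 in the border zone. The 5 macrophage markers summed to 4369 and 3177 in the myoblast infarct and border zones, against 3086 and 2866 in the control infarct and border zones. They did not all go 1 way. The dim ITGAM was 0.668 times the control in the infarct zone. CD14, also dim, and CD163 were 0.781 and 0.792 times the control in the border zone. The remaining markers of each zone were higher with myoblasts. The part of cell composition in the ratios of the calcium genes was not tested.

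**Figure D5:**
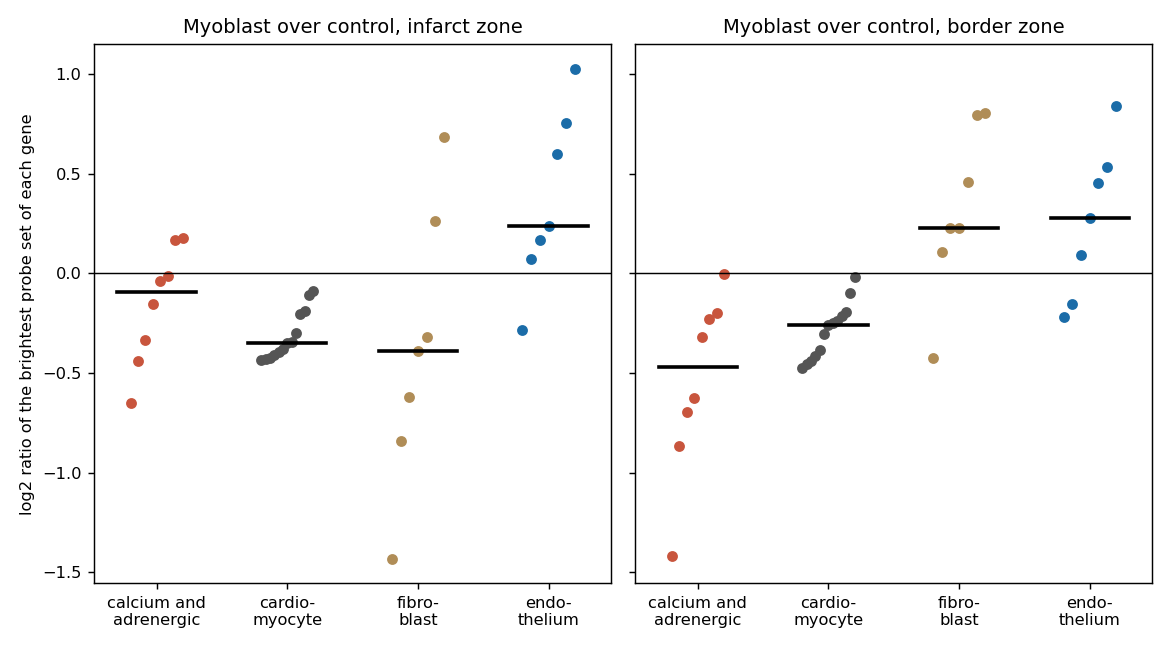
Log2 ratio of myoblast over control in the infarct zone (left) and border zone (right) for the brightest probe set of each calcium and adrenergic gene and of each cell type marker; points are genes and bars are medians. All 13 cardiomyocyte markers lie below 0 in both panels, and the fibroblast median is -0.39 in the infarct and 0.23 in the border zone. The cardiomyocyte markers were not read after quantile normalization.

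Profiles over the 4 arrays were also compared, as the root mean square distance between log2 signals centred on their own mean, over 5528 probe sets of single genes above every array median. The nearest to ATP2A2 were MRPS27 (0.0089), EIF3E (0.0093) and HMGN4 (0.011). The nearest to CAMK2G Ssc.5879.4.S1_a_at were NREP (0.029), SFRP1 (0.055) and MTCH2 (0.078). SFRP1, a secreted antagonist of Wnt signalling, read 4433 in the myoblast infarct zone, against 11914 in the control infarct zone, and 9069 in the myoblast border zone, against 10693 in the control border zone. SFRP1, like this CAMK2G probe set, was lowest on the myoblast infarct array, and 4 arrays give too few points for any test of likeness.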

How the data were processed

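Total RNA was labelled with biotin and hybridised to 1 array per condition. The deposited values were log2 signals that the authors had made with MAS5, and each array's signals were already scaled to a common trimmed mean. No further normalization, filter, floor or pseudocount was applied. Signals were taken back to the linear scale for printing, and a ratio is the difference of 2 log2 values. The platform annotation paired 10099 probe sets with 1 symbol, 198 with several and 13826 with none, and 7 of the 8 measured genes had an Entrez identifier with the same symbol in the RefSeq table of Sscrofa11.1 (that of SLC8A1 was not found). No genome build is named for the array values, so no coordinates are given.

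With 1 array per condition there was no test in the main analysis. The threshold was the 2-fold of the study's methods, and counts were set beside the same counts over all probe sets. The limma fit (version 3.58.1 in R 4.3.3, with Benjamini-Hochberg adjustment) was an alternative, and it was also run on simulated data. Also tried were quantile normalization, subtraction of each array's median, a floor at the array's median or its 25th percentile, only probe sets above the median, and 1 value per gene. The number of arrays limits the precision.

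The genes, the lists and the tests were chosen with earlier results of these data known. The genes named besides the 9 were those at least 1.5-fold apart the same way in both zones and above the array median on the brighter side of each, those 2-fold apart between the zones of a treatment and above the median on the brighter side of that contrast (which took in PRKAR2A, below the median in the border zone), and in each list, among genes above the median in both zones, the 2 with the largest positive and the 2 with the largest negative mean ratio. Dim genes named where a count was 5 or fewer (ITPR1, CACNB2, ADRA2A and PRKCD) were named after their values were seen. The profile neighbours were sought for the brightest gene and for the bright probe set whose mean log2 ratio was farthest from 0. Python 3.11.15 with numpy 2.4.6, pandas 2.3.3 and matplotlib 3.10.9 was used.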

Additional observations from a re-analysis of the deposited data

Results flagged for a closer look

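For 20 results the 2 log2 ratios under the same contrast had opposite signs. For myoblast over control this held for 4 of the 17 probe sets, beside 9524 of all 24123 on the array. No such count over the array was made for infarct over border zone. Probe sets with opposite signs under both contrasts, such as that of SLN, were counted under each. Each of the 20 results rests on 1 array per condition, and none of the differences was tested.

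For myoblast over control, the border ratio minus the infarct ratio is given with the infarct and the border ratio in brackets. It was -0.17 for ATP2A2 (Ssc.22641.2.S1_a_at, 0.17 and -0.00), -0.50 for RYR2 (Ssc.16180.1.S1_at, 0.18 and -0.32), -0.19 for RYR2 (Ssc.16180.2.S1_at, 0.07 and -0.12), 1.52 for ADRB1 (Ssc.16075.1.A1_at, -0.78 and 0.74) and 3.61 for SLN (-2.63 and 0.98). The SLN difference was the widest of these, and the ADRB1 probe set was below the median on every array.

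For infarct over border zone, the ratio in myoblast hearts minus that in control hearts, with both in brackets in that order, was -0.083 for ATP2A2 Ssc.22641.1.S1_at (-0.08 and 0.01), 1.22 for ATP2A2 Ssc.22641.3.S1_at (1.16 and -0.06), 0.31 for PLN Ssc.5227.1.S2_at (0.29 and -0.02), 0.50 for RYR2 Ssc.16180.1.S1_at (0.47 and -0.03) and 0.19 for RYR2 Ssc.16180.2.S1_at (0.14 and -0.05). It was 1.08 for SLC8A1 (0.73 and -0.35), -1.02 for CAMK2G Ssc.5879.4.S1_a_at (-0.89 and 0.13) and -1.52 for ADRB1 Ssc.16075.1.A1_at (-1.24 and 0.28). The RYR2 and ADRB1 differences are those of the treatment contrast with the sign turned, since the same 4 values enter both.

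Among the other pathway genes it was -3.61 for SLN (-3.51 and 0.10), 0.70 for TMEM38B (0.47 and -0.23), -0.081 for CALR (-0.03 and 0.05), 0.33 for RGS2 (0.19 and -0.14), 0.10 for RGS5 (0.10 and -0.01) and 0.46 for PRKACB (0.27 and -0.19). For the brightest KCNQ1 probe set, below the median on the myoblast border array, it was 0.95 (0.79 and -0.16).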

How the results depend on the processing

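Apart from CAMK2G Ssc.5879.4.S1_a_at in the infarct zone, which stayed past 2-fold with both floors, the counts at 2-fold rested on probe sets not above every array median. With a floor at the 25th percentile, a floor at the median, only probe sets above the median, the brightest probe set per gene and the mean of a gene's probe sets, the infarct count of 2 became 1, 1, 1, 0 and 0, the border count of 2 became 1, 0, 1, 1 and 1, and the zone counts, 2 in myoblast hearts and 1 in control hearts, became 0 each time. The count of 0 on the mean of both zones became 1 with quantile normalization, with centring and with the ratio of arithmetic means. The log2 ratio changed sign with a floor at the median for ATP2A2 Ssc.22641.3.S1_at in the border zone (0.0068) and for RYR2 Ssc.16180.2.A1_at, to 0.049 in the infarct zone and -0.019 between the zones of control hearts. For ADRB1 Ssc.16075.1.A1_at between the zones of myoblast hearts it was 0.10 with the floor at the 25th percentile and 0.023 with that at the median. The median over the 8 genes stayed below 0 in the border zone under all 4 rescalings and floors, with its nearest value to 0 at -0.21 with the floor at the median, but in the infarct zone it was 0.02 with the floor at the median, and between the zones of control hearts -0.06 with quantile normalization. Of the 4 genes 1.5-fold lower in the border zone, 3 stayed so with the floor at the 25th percentile and 2 with that at the median, where ADRB1 Ssc.16075.1.S1_at came to -0.43 and 0.0068. In the border zone all 8 genes were below 0 by their brightest probe set, beside 48.0% of all annotated genes. With quantile normalization or with the floor at the median 7 of 8 were, and no share over all annotated genes was taken for these settings. The main limits are 1 array per condition, signals below the array median for ADRB1 and on 3 of 4 arrays for SLC8A1, and probe sets of 1 gene that differed in direction. No paired analysis was possible because each condition was 1 array with no replicate number to pair by. The limma fit with zone as a term is the nearest to one, and it called 0 of the 17 probe sets.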
